A study of Mus musculus with 6 samples.

Results

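Mia3 and 5 genes that lie beside it on mouse chromosome 1 were followed in brain RNA of wild-type and APP/PS1 mice. In gene order they are Disp1, Brox, Aida, Mia3, Taf1a and Hhipl2. Mia3 was picked because its signal was higher in APP/PS1 brain in these arrays, and the others were picked by position. Each gene has 1 probe, found by its RefSeq transcript identifier and printed as 1 spot per array. These 6 genes are among 112 genes, read by 116 probes, that could be named through RefSeq on an array of 59709 probes used for non-coding RNA profiling.

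The animals were male mice of strain C57BL/6 aged 9 months, with 3 wild-type (WT) mice and 3 APP/PS1 mice called biological replicates by the labels. APP/PS1 names transgenes for the amyloid precursor protein and presenilin 1, whose expression leads to amyloid plaques. The labels give neither the promoters of the transgenes nor the brain region. RNA of each sample was labelled with Cy3 and read in 1 colour. Scanner signals were used for 5 arrays (WT replicates 1 and 2 and the 3 APP/PS1 replicates), and a table of normalized log2 values covered all 6 samples.

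These genes serve separate routes. Mia3 encodes TANGO1, a membrane protein at exit sites of the endoplasmic reticulum that gathers bulky cargo such as collagen for COPII carriers. Brox encodes a lipid-anchored Bro1-domain protein that works with the ESCRT membrane machinery, and Aida encodes a partner of axin that restrains JNK activation. Taf1a encodes a subunit of the SL1 factor, which recruits RNA polymerase I to ribosomal RNA genes. Disp1 encodes Dispatched, which releases lipid-modified Hedgehog from the cells that make it, and Hhipl2 is named for its likeness to the Hedgehog-interacting protein.

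The starts of these genes, taken from RefSeq windows of build GRCm38.p6, show how the neighbours are arranged. Aida and Brox are transcribed away from each other, with the nearer Brox start 52 bases before the Aida start. The other annotated Brox start lies 233 bases past the Aida start, so that these 2 transcripts overlap head to head. Mia3 and Taf1a also point away from each other, with starts 19.3 kb apart, and the Mia3 start lies 72.5 kb from that of Aida.

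The stretches before the starts of Mia3 and of Taf1a, the gene nearest to it, and the end of the interval shared by Brox and Aida are shown here. The first is on the minus strand at chr1:183369566-183369815, the second on the plus strand at chr1:183388635-183388884 and the third on the plus strand at chr1:183297030-183297059. Capitals mark matches, on either strand, to 8 short motifs in the first 2 stretches, and to CACGTG and TGACG in the last.
Mia3: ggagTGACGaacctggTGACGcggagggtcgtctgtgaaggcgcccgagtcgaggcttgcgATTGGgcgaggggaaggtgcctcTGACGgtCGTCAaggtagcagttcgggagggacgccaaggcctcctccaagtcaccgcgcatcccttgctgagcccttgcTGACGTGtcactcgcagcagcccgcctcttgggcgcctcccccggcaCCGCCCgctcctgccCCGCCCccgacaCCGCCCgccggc
Taf1a: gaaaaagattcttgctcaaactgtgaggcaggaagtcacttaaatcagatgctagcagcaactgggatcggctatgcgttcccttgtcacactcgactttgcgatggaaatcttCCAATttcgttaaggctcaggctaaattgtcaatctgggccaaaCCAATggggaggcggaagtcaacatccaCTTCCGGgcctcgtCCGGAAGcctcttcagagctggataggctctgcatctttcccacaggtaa
Aida: gggccggcccagagcaggCGTCACGTGact

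The motifs searched on both strands were the TATA box motif TATAAA, the inverted or forward box CCAAT, the GC box motif GGGCGG, the E box motif CACGTG, the cyclic AMP response core TGACG, the ETS factor core CCGGAAG, the unfolded protein response core TGACGTG and the NRF1 core. The seventh of these contains the fifth. The 250 bases before the Mia3 start held 5 matches to TGACG, and 1 of them was the longer TGACGTG. At least 1 TGACG occurred in 17.8% of 32851 RefSeq windows of this length, 5 or more, a number set by the Mia3 window, in 0.0274% and TGACGTG in 1.65%. The Mia3 window also held 3 matches to the GC box GGGCGG, found in 32.7% of all windows, and 1 CCAAT box, found in 33.8%. Its GC content was 70.4%, with 27 CpG dinucleotides, against medians of 52.4% and 6 over all windows.

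The Taf1a window held no TGACG. It held 2 CCAAT boxes and 2 matches to CCGGAAG, the ETS core, which occurred in 6.91% of all windows, and its GC content was 49.6%. The short stretch before Aida held CACGTG, the E box found in 6.02% of windows, overlapping 1 TGACG on the other strand. None of the 10 windows of the 6 genes held TATAAA, which occurred in 12.4% of all windows. A match is a string of letters, and no binding was measured.

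The arrays differed in brightness before any scaling. The 75th percentile of the processed signal was 404 and 407 on the WT arrays and 489 to 531 on the APP/PS1 arrays, a shift of 0.34 (log2), so each array was scaled to that percentile. Of all probes, 68% and 69.1% were well above background on the WT arrays and 70.2% to 78.5% on the APP/PS1 arrays. Each genotype was scanned on a slide of its own, WT on slide 1 and APP/PS1 on slide 2, and the effects of slide and genotype cannot be told apart. WT replicates 2 and 3 scattered by 0.062 (log2, from the mean absolute difference) over 24212 brighter rows of the value table, against 0.102 to 0.119 for the other replicate pairs. Repeated spots of 1 probe scattered by 0.066, the median of only 15 probes that ranged from 0.050 to 0.197. The scatter of this pair was thus close to that between spots, and its members were averaged into 1 sample, so that WT counts 2 samples and APP/PS1 counts 3. The p-values measure the spread between these few samples. The spots of the 6 genes passed the scanner's background test on each scanned array, and none was saturated or called an outlier.

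Mia3, the cargo receptor for collagen export, gave a processed signal of 64.8 and 59.9 on WT arrays 1 and 2. On APP/PS1 arrays 1, 2 and 3 it gave 110, 138 and 135. All 3 APP/PS1 arrays were above both WT arrays, and APP/PS1 replicate 1 was the lowest of its group. The scanner's own error model gave these spots errors of 7.44 and 7.11 in WT and of 11.8, 14.2 and 13.9 in APP/PS1. After scaling, the log2 signal relative to the array's 75th percentile was -2.70 ± 0.09 (SD, n = 2) in WT and -2.01 ± 0.12 (SD, n = 3) in APP/PS1. The difference was 0.69 ± 0.10 (SE), or 1.61-fold, given as a description because this change led to the choice of the gene.

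**Figure D1:**
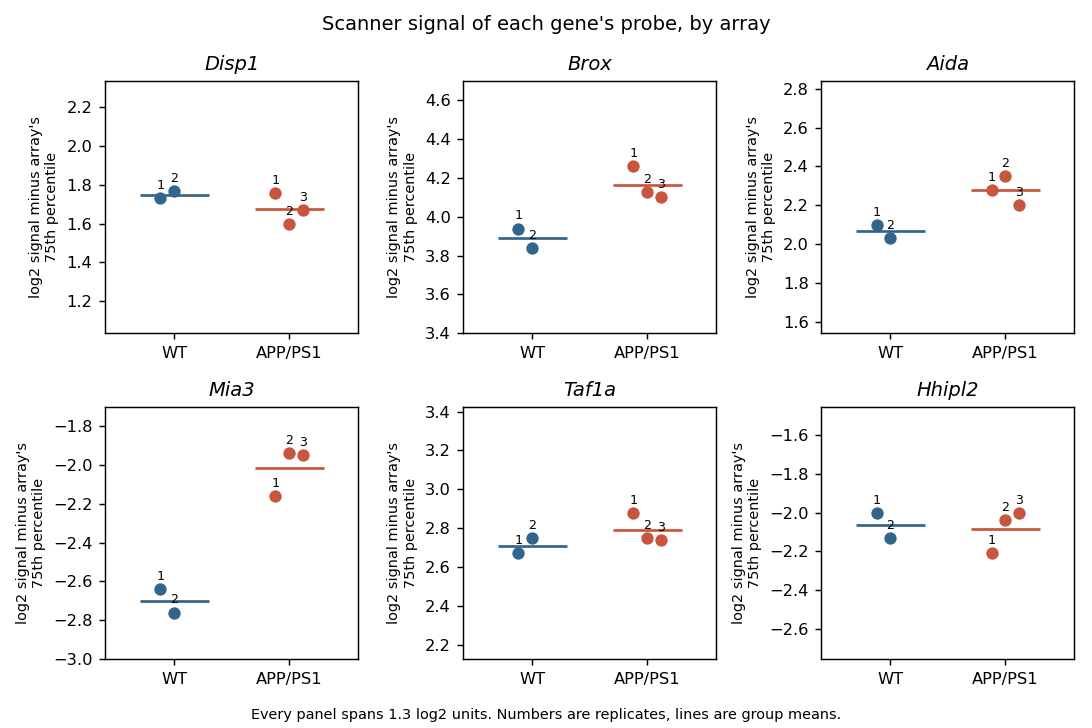
Scaled log2 scanner signal of each gene's probe on 2 WT and 3 APP/PS1 arrays, with every panel spanning the same range on the y axis. Points are arrays numbered by replicate and lines are group means; the groups are apart for Mia3, Brox and Aida and overlap for Disp1, Taf1a and Hhipl2.

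The value table holds the same arrays in the authors' normalization, so its like picture for Mia3 is no separate evidence. The sixth sample in it is WT replicate 3, averaged with WT replicate 2 in the fit. The log2 values of Mia3 were 6.27, 6.18 and 6.15 in WT replicates 1, 2 and 3. They were 6.73, 6.91 and 6.89 in APP/PS1 replicates 1, 2 and 3. The groups did not overlap, with a gap of 0.46 between the nearest samples. The change there was 0.63 ± 0.09 (SE) on the log2 scale.

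The Mia3 spot was dim, and its change depended on how background was handled. Its median brightness before background removal was 114 and 106 in WT, over local backgrounds of 26 and 28, and 161, 196 and 180 in APP/PS1, over 26, 24 and 26. The spot was above 99.8% or more of the 1200 negative-control spots on each array. The median negative-control spot was 4 and 3.81 on the WT arrays and 4.67 to 5.97 on the APP/PS1 arrays, and the 90th percentile moved from 17.1 and 16 to between 25.2 and 30.2. Their part in the Mia3 result was not tested. Plain subtraction of the local background gave a log2 change of 0.54. Normexp, a model-based background correction, was run with an offset of 50 added to each spot. Such an offset shrinks log2 changes of dim spots more than those of bright ones, and its part here was not tested. With this correction the log2 change was 0.29 with quantile normalization and 0.04 with scaling to the 75th percentile. In that last setting the 2 groups overlapped, and the median change over all probes was -0.22 against 0.04 in the scanner signals.

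**Figure D2:**
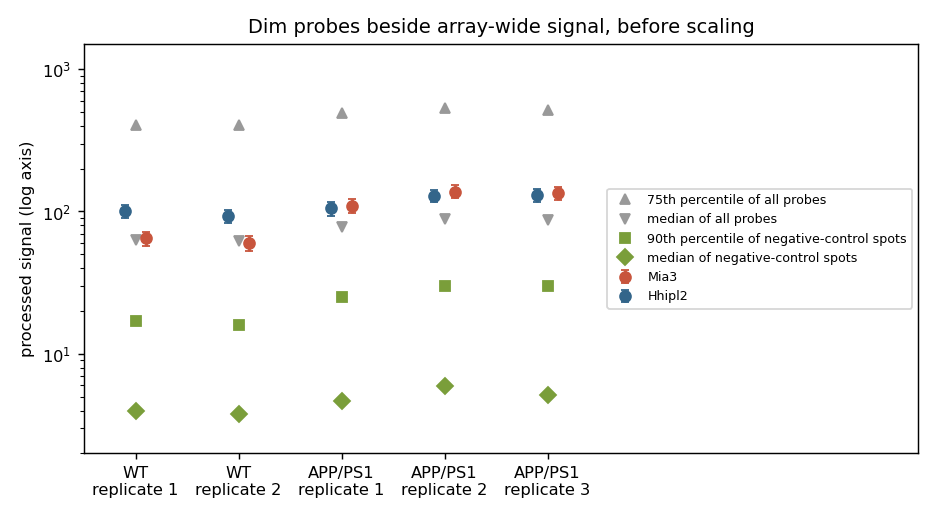
Processed signal before scaling, on a log axis, of the Mia3 and Hhipl2 spots on each scanned array, with error bars from the scanner's error model, beside array-wide percentiles and negative-control spots. Mia3 goes from 64.8 and 59.9 in WT to between 110 and 138 in APP/PS1, while the array-wide and negative-control values are also higher on the APP/PS1 arrays.

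Brox, which encodes the Bro1-domain protein, was also higher on each APP/PS1 array. Its change was below that of Mia3 in the processed signals. It was above it, at 0.36 against 0.04, under normexp with its added offset and 75th percentile scaling. Its processed signal was 6180 and 5830 on WT arrays 1 and 2 and 9370, 9260 and 8900 on APP/PS1 arrays 1, 2 and 3. After scaling, the means were 3.89 ± 0.07 (SD, n = 2) in WT and 4.16 ± 0.09 (SD, n = 3) in APP/PS1. The groups did not overlap, and the lowest APP/PS1 array lay 0.16 above the highest WT array. The log2 change of 0.27 (95% interval 0.04 to 0.50) did not pass the threshold in limma, with an adjusted p of 0.0723 over 45560 probes.

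Brox stood close to that threshold in several settings and farther from it in others. In the value table its log2 values were 12.75, 12.63 and 12.59 in WT and 13.03, 12.95 and 12.92 in APP/PS1, and the change of 0.29 had a limma adjusted p of 0.0584. It passed when WT replicates 2 and 3 were taken as separate samples (adjusted p = 0.0163 in limma), although the scatter between them was close to that between spots. It also passed under normexp with quantile normalization (adjusted p = 0.0271 in limma) and with a variance trend and robust weights in the fit (adjusted p = 0.0195 in limma). Brox was farther from the threshold with median centring, where the limma adjusted p was 0.259. This was 0.165 with the replicate number as a block and 0.128 with no filter on dim probes. Without 1 of the APP/PS1 arrays the limma adjusted p was 0.12 to 0.141.

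Aida, the axin partner that shares the divergent start with Brox, gave processed signals of 1730 and 1660 in WT. On APP/PS1 arrays 1, 2 and 3 it gave 2370, 2700 and 2390. Scaled means were 2.06 ± 0.05 (SD, n = 2) and 2.27 ± 0.08 (SD, n = 3), and no WT array reached the lowest APP/PS1 array. The log2 change of 0.21 (95% interval 0.00 to 0.42) did not pass the threshold, with a limma adjusted p of 0.108. In the value table the change was 0.19 (95% interval -0.02 to 0.40), with a limma adjusted p of 0.135. The limma adjusted p was 0.141 under quantile normalization, 0.0839 under normexp with quantile normalization and 0.111 under plain subtraction. It was 0.0493 in limma with WT replicates 2 and 3 apart, although the scatter between them was close to that between spots. With the variance trend and robust weights the limma adjusted p was 0.0442.

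Brox and Aida had similar changes. Within each array, where scaling cancels, the log2 difference between Brox and Aida moved by 0.06 ± 0.08 (SE) from WT to APP/PS1, with overlapping groups. The same difference was 0.09 in the value table. Overlap was not particular to this pair. It also held for Aida minus Taf1a (0.14 ± 0.09, SE), Taf1a minus Hhipl2 (0.09 ± 0.16, SE) and Disp1 minus Hhipl2 (-0.05 ± 0.15, SE).

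Disp1, which encodes the exporter of Hedgehog and lies farthest from Mia3 on the Brox side, gave processed signals of 1340 and 1390 in WT and 1660, 1610 and 1660 in APP/PS1. After scaling, the groups overlapped at 1.75 ± 0.03 (SD, n = 2) and 1.68 ± 0.08 (SD, n = 3). The log2 change was -0.07 (95% interval -0.29 to 0.14), with a limma adjusted p of 0.515. The value table gave -0.08, and the normexp and plain subtraction settings gave values between 0.02 and 0.13, so no direction can be given.

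Taf1a, the SL1 subunit gene next to Mia3 on the other side, gave processed signals of 2580 and 2740 in WT and 3590, 3570 and 3470 in APP/PS1. Scaled values overlapped at 2.71 ± 0.06 (SD, n = 2) and 2.79 ± 0.08 (SD, n = 3). The log2 change was 0.07 (95% interval -0.14 to 0.29), with a limma adjusted p of 0.526, and median centring turned it to -0.02. Under normexp with 75th percentile scaling it was 0.19, with a gap of 0.06 between the groups and a limma adjusted p of 0.212.

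Hhipl2, the last gene on that side, was read from a dim spot like that of Mia3. Its processed signal was 101 and 92.6 in WT and 105, 129 and 130 in APP/PS1. Its median spot brightness was 140 and 144 in WT and 162, 181.5 and 180 in APP/PS1, with spot over local background at 4.83 and 5.24 in WT and 6 to 6.92 in APP/PS1. Scaled values overlapped at -2.07 ± 0.09 (SD, n = 2) and -2.09 ± 0.11 (SD, n = 3). The log2 change was -0.02 (95% interval -0.28 to 0.24), with a limma adjusted p of 0.895. Plain subtraction, or leaving out WT replicate 1 or APP/PS1 replicate 1, turned its sign, to at most 0.05, and normexp with 75th percentile scaling gave -0.23.

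**Figure D3:**
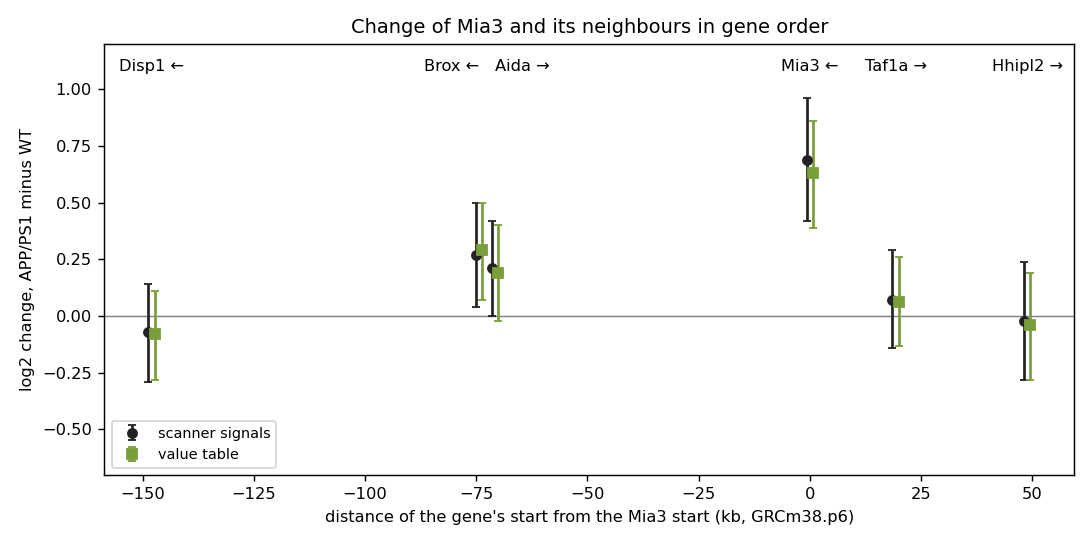
Log2 change (APP/PS1 minus WT) of the 6 genes against the distance of each gene's start from the Mia3 start in kb, with 95% intervals, from the scanner signals and the value table. Brox and Aida are drawn slightly apart, and arrows give the direction of transcription. In the scanner signals Mia3 lies at 0.69, and Brox and Aida at 0.27 and 0.21. The intervals of Disp1, Taf1a and Hhipl2 span 0. That of Aida also spans 0 in the value table (-0.02 to 0.40) and starts at 0.00 in the scanner signals.

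Differences between spots of 1 array cancel any scaling of that array, but not the handling of background. The log2 difference between Mia3 and Hhipl2 was higher in APP/PS1 by 0.71 ± 0.02 (SE), and between Mia3 and Taf1a by 0.61 ± 0.17 (SE). The SE of 0.02 reflects only the spread over these few arrays. The scanner's error model gave the Mia3 and Hhipl2 spots errors of 10.3% to 11.9% of their signal. Neither difference overlapped between groups in the processed signals. For single probes the groups did not overlap in 62.7% of all, and the share over all probe pairs was not computed. Both differences contain the dim Mia3 spot, and the first also the dim Hhipl2 spot. Under normexp with quantile normalization the differences were 0.32 and 0.22, and under normexp with 75th percentile scaling 0.27 and -0.15. Mia3 also moved beyond Aida by 0.47 and beyond Brox by 0.41 in this measure (by 0.43 and 0.34 in the deposited values). This order also depended on the background setting, the normexp offset included. The differences were 0.10 and 0.05 under normexp with quantile normalization. Their sign turned, to -0.27 and -0.31, under normexp with 75th percentile scaling. Among the neighbours, the difference between Brox and Taf1a was higher in APP/PS1 by 0.20 ± 0.06 (SE) and that between Disp1 and Brox was lower, at -0.35 ± 0.06 (SE). The first was 0.15 to 0.23 and the second -0.19 to -0.37 in the deposited values and the other background settings. These are descriptions from the 15 pairs of these genes with no test. The pairs share genes, and 5 of the 15 contain the gene picked for its change.

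The share of neighbours called was below or near that of all probes. None of the 5 neighbours passed an adjusted p of 0.05 in limma on the scanner signals, where 32.7% of all probes did, and 2 of them, Brox and Aida, had an unadjusted p below 0.05, as 46.1% of all probes did. In the deposited values 0 of 5 passed, beside 30.1% of all rows, and 1, Brox, had an unadjusted p below 0.05, beside 44.3%. With WT replicates 2 and 3 as separate samples 2 of 5 passed, beside 41.8%, and under normexp with quantile normalization 1 of 5 passed, beside 39.2%. With the variance trend and robust weights 2 of 5 passed, beside 38.8%. Among the 6 genes, the lowest APP/PS1 array exceeded the highest WT array for 3 and the reverse held for 0, while 33.7% of all probes were higher in this way and 29.1% lower. A share of 3 in 6 is thus not far from the background, and 1 of the 3 is the gene that was picked. The median log2 change of the 5 neighbours was 0.07, beside 0.04 over all probes, and that of the 6 genes was 0.14.

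The size of the Mia3 change, for which the gene was picked, was at or above that of 81.5% of all probes tested in the processed signals. This share fell to 68.7% under normexp with quantile normalization and to 6.42% under normexp with 75th percentile scaling. In the processed signals it was 44.4% for Brox, for Aida 35.8%, and for the other 3 genes between 3.47% and 13%.

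**Figure D4:**
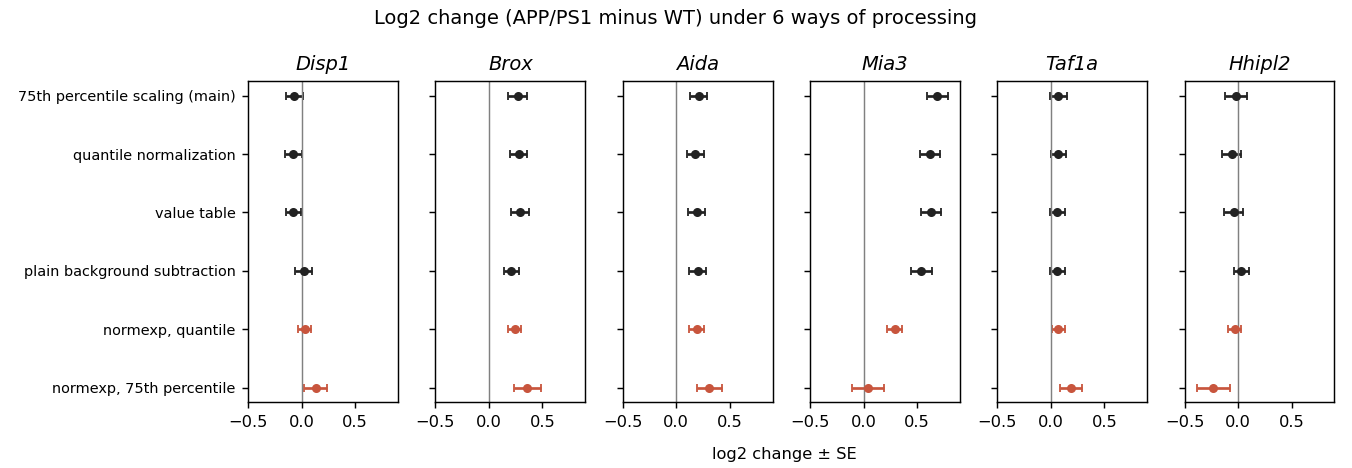
Log2 change (APP/PS1 minus WT, with SE bars) of each gene under 6 ways of processing, with the 2 normexp corrections in red. Mia3 goes from 0.69 to 0.29 and 0.04 under normexp, Brox and Aida stay above 0 in each, and Disp1, Taf1a and Hhipl2 lie between -0.23 and 0.19.

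The partners of these genes were mostly outside what the array could name. Of 182 genes in lists of COPII export, collagens, SL1, Hedgehog signalling, Bro1 and ESCRT proteins, axin partners and brain cell types, 7 had a probe that could be named: the 6 genes and Tbp. Tbp encodes the TATA-binding protein, which sits in SL1 together with the Taf1a product. Its scaled log2 signal, from 20 spots per array, was 2.37 and 2.44 in WT and 2.21, 2.15 and 2.15 in APP/PS1. Every APP/PS1 array was below both WT arrays, as for 29.1% of all probes. The log2 change of -0.23 ± 0.07 (SE) had a limma adjusted p of 0.0617. This became 0.044 in limma under quantile normalization, where 32.8% of all probes passed. The change was smaller in size than the array shift of 0.34 that scaling removed. So were the changes of the neighbours, Brox at 0.27 and Aida at 0.21 included. None of the 38 COPII genes other than Mia3, and none of the 20 collagen genes, had a named probe. None of the 35 marker genes of brain cell types had one either, so the tissue label could not be checked and a change in cell makeup was not tested. In bulk tissue, fewer cells of a type and less RNA per cell cannot be told apart.

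Among 73 named probes in the value table, the 5 genes closest to Mia3 over the 6 samples, after each was centred on its own mean, were 4930526I15Rik, Gm4312, H2ac19, Vamp7 and Jrkl. The root mean square difference was 0.089 (log2) for the first and 0.117 for the last. The values of 4930526I15Rik were 10.62, 10.50 and 10.48 in WT and 11.04, 11.11 and 10.99 in APP/PS1. Vamp7, which encodes a vesicle fusion protein, had 12.74, 12.72 and 12.66 in WT and 13.20, 13.15 and 13.18 in APP/PS1. H2ac19 belongs to a family of near-identical histone genes, so its signal may be shared with copies. Of the neighbours, Brox ranked 11th with a difference of 0.189 and Aida 16th with 0.228, while Taf1a, Hhipl2 and Disp1 ranked 28th, 31st and 36th. All profiles come from the same 6 samples with 2 genotypes, so likeness here mostly restates the change between genotypes.

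**Figure D5:**
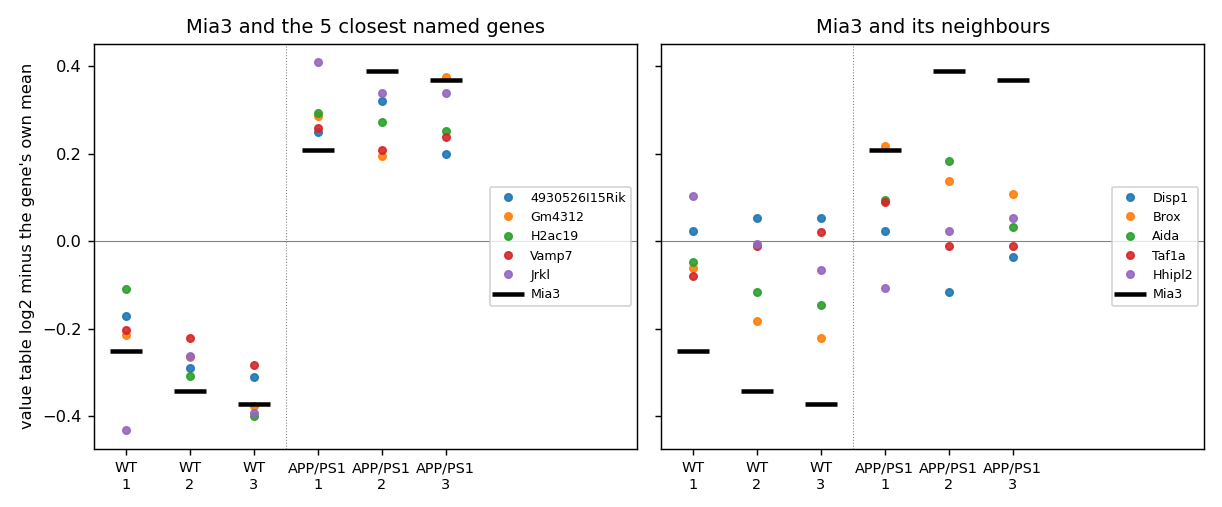
Value table log2 minus each gene's own mean in the 6 samples, for Mia3 (black bars) with the 5 closest named genes on the left and with its 5 neighbours on the right. Of the neighbours, Brox and Aida lie below their mean in WT and above it in APP/PS1, and Disp1, Taf1a and Hhipl2 have no such split.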

How the data were processed

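The array design names build mm9, per the file headers, and arrays were read with Agilent Feature Extraction 11.0.1.1, per the submitters' processing notes. Spot intensity on a linear scale, background-subtracted and processed by the scanner software, was taken from the scanner files, per the file headers. WT replicate 1 lists it with 3 digits. The authors' deposited table gives normalized log2 values, with a median of 7.06 in the columns of the 5 scanned arrays, which correlated with log2 processed signals at 0.9996 or more. The sources used here do not name its normalization. Identifiers were matched to a RefSeq table of GRCm38.p6, used for names and gene order; starts and sequences come from RefSeq promoter windows of that build.

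Log2 processed signals were reduced by each array's 75th percentile. Probes well above background on at least 2 arrays were tested with limma 3.58.1 in R 4.3.3 (two-sided, Benjamini-Hochberg over all probes, threshold 0.05; checked on simulated data). Intervals are 95% intervals from the same fit. The few arrays limit the precision. Normexp used an offset of 50 on median spot signals. The members, the gene lists and the averaging of WT replicates 2 and 3 were chosen with earlier results of these data known. The genes named are the 6 members, list genes with a probe and the 5 named genes closest to Mia3. Same-numbered samples did not deviate together (correlations 0.050, -0.077 and 0.011 in the value table).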

Additional observations from a re-analysis of the deposited data

How the results depend on the processing

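Brox stayed above 0 in all alternatives run, with log2 changes of 0.18 to 0.36, and Aida with 0.12 to 0.31. Brox passed at 0.24 under normexp with quantile normalization, at 0.27 with a variance trend and at 0.31 with WT replicates 2 and 3 apart, and Aida passed at 0.21 in the last 2. Median centring gave the smallest changes, 0.18 for Brox and 0.12 for Aida, with limma adjusted p of 0.259 and 0.374. Mia3 moved from 0.69 to 0.29 under normexp with quantile normalization, to 0.04 with 75th percentile scaling and to 0.54 under plain subtraction. The last 2 and the table with WT replicates apart were chosen after seeing the data. The cause was not tested. With 1 array left out Mia3 ranged from 0.63 to 0.76.

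The count of 14885 probes called in the scanner signals became 7846 under normexp with 75th percentile scaling. With the replicate number as a replicate block it became 0 in limma, with 1 residual degree of freedom and 15346 probes at an unadjusted p under 0.05. No neighbour was called in the scanner signals without the block, so with 0 probes called no neighbour's call could change. Leaving out 1 array gave 7643 to 10483, with 8691 and 8933 without WT replicate 1 or 2 and 7643 and 7897 without APP/PS1 replicate 2 or 3. In the value table, where 14593 were called, the range was 5725 (without WT replicate 1) to 14380, with 9139, 7420 and 7663 without APP/PS1 replicates 1, 2 and 3. Where 1 WT array was left, its spread was taken from APP/PS1.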
